A study of Mus musculus with 16 samples.

Results

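Intermediate progenitors (IPs) of the embryonic cortex are basal precursors that arise from apical progenitors (APs) and divide to give excitatory neurons. Proneural transcription factors of the basic helix-loop-helix class, chiefly *Neurog2*, start this step, and *Eomes* and *Insm1* act in the IPs that follow. Genes that the proneural factors switch on then modify Notch signaling, slow the cell cycle or move the newborn neuron. The genes described here are 10 such genes, *Neurog1*, *Neurog2*, *Eomes*, *Insm1*, *Neurod1*, *Neurod4*, *Rnd2*, *Hes6*, *Mfng* and *Gadd45g*, named for these roles. They were chosen with earlier results of these data known, and they are 10 of the 51912 genes listed in the count data.

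Counts were analyzed from micro-dissected E15.5 cortex of 15 mice of mixed genetic background and both sexes. In the 4 cKO mice (5, 7, S2 and F3), *hGFAP-Cre*, a transgene that recombines in cortical NPCs, was combined with a conditional *Knl1* allele (named *Casc5* in the labels). In the 4 dKO mice (T2, T8, F1 and F7) *hGFAP-Cre* was combined with conditional alleles of both *Knl1* and *Trp53*. The paper describes both genotypes as homozygous for the conditional alleles. The 7 ctrl mice were wild type (2, 6, S1, S3 and T3) or heterozygous (T4 and T5) for *Knl1*, and their Cre and *Trp53* status is not in the labels. Both comparisons with ctrl use the same 7 ctrl mice, so they are not independent of each other.

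Depth ranged from 399832 to 3266227 counts per mouse in ctrl, from 4178461 to 8800987 in cKO and from 552186 to 5396803 in dKO, so the cKO mice were all deeper than the ctrl mice. The unit of all levels below is CPM, a count scaled to the total of its mouse and adjusted by TMM. Without that scaling, 3 counts correspond to 7.50 CPM in the shallowest mouse and to 0.341 CPM in the deepest, and these floors cover counting error only. The level of *Knl1* was 62.8 ± 13.5 CPM in ctrl (SD, n = 7), 58.2 ± 14.8 CPM in cKO and 49.8 ± 11.6 CPM in dKO (SD, n = 4 each), and *Trp53* was at 30.5 ± 10.6, 28.3 ± 4.26 and 25.1 ± 5.26 CPM. Neither gene was called in any comparison (edgeR FDR = 1), so counts over the whole gene in whole cortex did not separate the labeled genotypes, and the groups are used as labeled. In bulk tissue, fewer cells of a type and less RNA per cell cannot be told apart.

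Promoter sequences were taken from a RefSeq table of GRCm38.p6, which has entries for 7 of the 10 genes and none for *Insm1*, *Mfng* and *Rnd2*. The 250 bases before the start site are shown for *Eomes* and *Neurog2*, because these were the members whose RNA was called lower in cKO. Capitals mark CCAAT on either strand and, close to the start, TATAA. Both lie on the plus strand, *Eomes* at chr9:118477939-118478188 and *Neurog2* at chr3:127632886-127633135.
Eomes: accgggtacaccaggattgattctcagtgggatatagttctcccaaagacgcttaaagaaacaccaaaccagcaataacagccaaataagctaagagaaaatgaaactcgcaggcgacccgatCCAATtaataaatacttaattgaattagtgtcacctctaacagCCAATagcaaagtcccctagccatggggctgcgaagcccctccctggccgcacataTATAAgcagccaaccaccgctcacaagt
Neurog2: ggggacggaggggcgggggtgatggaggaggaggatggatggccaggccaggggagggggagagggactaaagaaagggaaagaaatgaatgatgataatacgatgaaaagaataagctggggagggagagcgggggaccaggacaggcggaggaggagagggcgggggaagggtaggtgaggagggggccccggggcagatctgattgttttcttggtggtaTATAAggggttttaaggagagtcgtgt

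The TATAA letters stand 28 bases before the start in *Eomes* and 27 before it in *Neurog2*, and 3 other members carry them at nearly the same distance. The 35 bases from 45 to 11 before the start are shown for these 3, with TATAA in capitals. *Gadd45g* lies at chr13:51846630-51846664 on the plus strand. *Hes6* (chr1:91413233-91413267) and *Neurod1* (chr2:79456647-79456681) lie on the minus strand.
Gadd45g: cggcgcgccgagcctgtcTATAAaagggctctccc
Hes6: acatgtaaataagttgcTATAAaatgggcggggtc
Neurod1: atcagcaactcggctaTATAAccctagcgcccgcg

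TATAA, the core of the TATA box that positions the transcription start, was therefore in this stretch for 5 of the 7 members with an entry. Over all 32851 promoters of the table it was there in 4.16%. It was not in the stretch of *Neurog1* or *Neurod4*. CCAAT, searched on both strands of the 300 bases in the table, was in a promoter of 4 of the 7 members (*Eomes*, *Gadd45g*, *Hes6* and *Neurog1*), against 37.4% of all promoters. CANNTG, the general E-box letters that helix-loop-helix factors can bind, were in 5 of the 7 against 72.3%. CAGATG, a narrower E-box contained in CANNTG, was in 0 of the 7 against 17.2%, and AGGTGTGA, letters that T-box factors can bind, were in 0 of the 7 against 1.28%. *Hes6* and *Neurod4* have 2 entries each, so the 7 members have 9 promoters, while the shares over all promoters are per promoter. Counted per promoter, TATAA was in 5 of the 9, CCAAT in 4 of 9 and CANNTG in 6 of 9. The motifs were chosen after the sequences had been seen, and a match is a description of letters and not of a bound site.

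**Figure D1:**
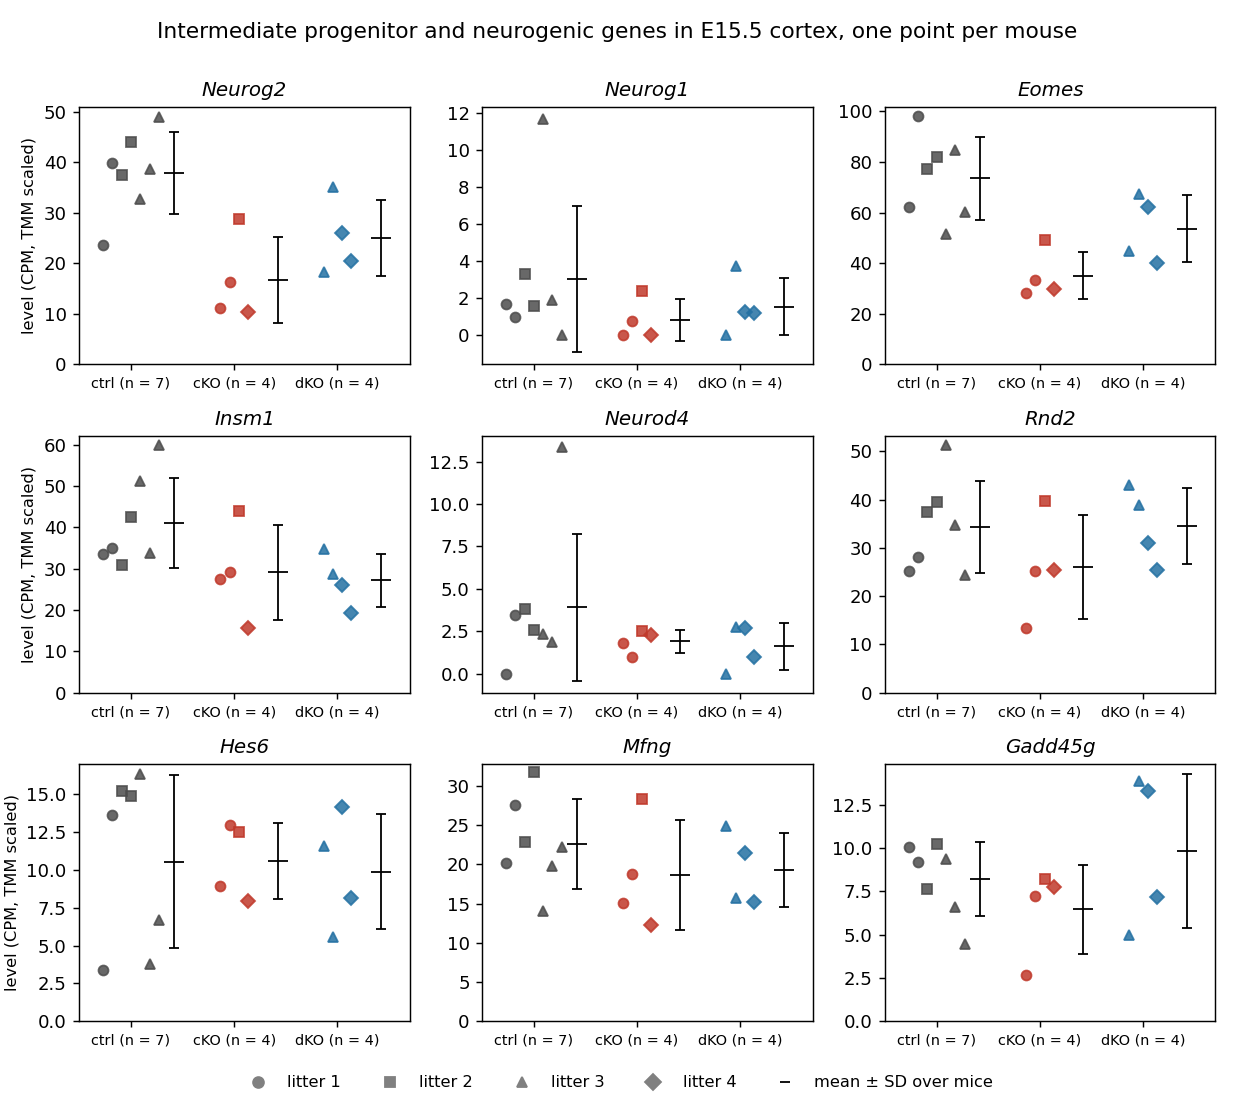
Level of each member with counts in E15.5 cortex, in CPM with TMM scaling (vertical axis), for the 7 ctrl, 4 cKO and 4 dKO mice. Each point is a mouse, its shape gives the litter, and the horizontal mark with bars is the mean ± SD; *Eomes* is the only panel in which every cKO mouse lies below every ctrl mouse.

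*Neurod1*, a helix-loop-helix factor of late IPs and new neurons, was listed at 0 in all 16 libraries. *Sox2* and *Tubb3*, which cells of this tissue use, were listed at 0 as well, so the value is not read as lack of RNA. The annotated *Neurod1* gene shares 201 exon bases with *Cerkl* on the same strand and 154 with *Gm26755*. It was left out of the counts of members, which cover the other 9.

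*Neurog2* (ENSMUSG00000027967, chr3:127633135-127635631 of GRCm38, plus strand) encodes the proneural factor that directs cortical progenitors to the excitatory neuron fate. In ctrl it was at 23.5 CPM in the lowest mouse, 38.6 at the median and 48.9 in the highest. In cKO it was at 11.2, 16.3, 28.8 and 10.2 CPM in mice 5, 7, S2 and F3. Mice 5, 7 and F3 were below all ctrl mice, and S2 lay within the ctrl range. In dKO it was at 18.2, 35.1, 26.0 and 20.4 CPM in mice T2, T8, F1 and F7, with T2 and F7 below all ctrl mice. The mean was 37.9 ± 8.14 CPM in ctrl (SD, n = 7), 16.6 ± 8.54 in cKO and 24.9 ± 7.54 in dKO (SD, n = 4 each). *Neurog2* was called lower in cKO than in ctrl, and the log fold change, on the log2 scale, was −1.19 with a standard error of 0.25 (FDR = 0.00564 in edgeR), which puts cKO at 43.8% of ctrl. Its call was lost without cKO mouse 5 (−1.03, edgeR FDR = 0.0967), 7 (−1.15, FDR = 0.0885) or F3 (−1.02, FDR = 0.0505). It was lost as well with wild-type ctrl mice only (−1.10, edgeR FDR = 0.119), in batch 1 only (−0.95, FDR = 1) and with all mice thinned to the lowest total (−1.31, FDR = 0.0959).

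*Neurog1* (ENSMUSG00000048904, chr13:56250478-56252163, minus strand), the paralog of *Neurog2*, was near the floor. Its counts were between 0 and 6 in ctrl and dKO and between 0 and 21 in cKO, and 1 ctrl, 2 cKO and 1 dKO mice had none. Its log fold change was −1.57 in cKO versus ctrl with an approximate 95% interval of −3.21 to 0.07, so a wide range of differences was not excluded at this depth.

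*Eomes* (ENSMUSG00000032446, chr9:118478212-118486132, plus strand) encodes the T-box factor that marks IPs. In ctrl it was at 51.4 CPM in the lowest mouse, 77.1 at the median and 98.1 in the highest. In cKO it was at 28.2, 33.3, 48.9 and 29.8 CPM in mice 5, 7, S2 and F3. All 4 cKO mice were thus below all 7 ctrl mice, by a margin of a few CPM for S2. In dKO it was at 44.8, 67.5, 62.2 and 40.2 CPM in mice T2, T8, F1 and F7, where T2 and F7 were below all ctrl mice and T8 and F1 within their range. *Eomes* was called lower in cKO than in ctrl, at −1.13 with a standard error of 0.18 (FDR = 5.1e-06 in edgeR), or 45.8% of ctrl. It was called in all 15 alternative fits (log fold changes of −1.36 to −1.03) and in all 11 fits that left out a mouse (−1.37 to −1.03), with an edgeR or DESeq2 FDR of at most 0.007. An antisense gene, *Gm33460*, shares 118 exon bases with *Eomes* and held 36 counts over the 16 libraries.

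Libraries S2 and S2b of cKO mouse S2 were repeat libraries and differed little over 13658 genes (chi-square per degree of freedom of 1.14). *Eomes* was among the genes that differed, with 249 counts (56.5 CPM) in S2 and 181 (41.2 CPM) in S2b (exact binomial test, two-sided p = 0.00122), and 0.387% of the 6716 genes with at least 200 counts had a p as small. For the other 8 members the p of this exact test was between 0.285 and 1. With either library alone, *Eomes* and *Neurog2* were both called lower in cKO. In *Eomes*, library S2 alone was above ctrl mouse T3 (51.4 CPM with TMM scaling, from 22 counts), so the mice of cKO and ctrl then overlapped.

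*Insm1* (ENSMUSG00000068154, chr2:146221921-146225020, plus strand), a zinc finger factor that promotes the formation of basal progenitors, was at 30.9 CPM in the lowest ctrl mouse, 35.1 at the median and 60.0 in the highest. In cKO it was at 27.6, 29.3, 43.9 and 15.7 CPM in mice 5, 7, S2 and F3. In dKO it was at 34.8, 28.6, 26.0 and 19.2 CPM in mice T2, T8, F1 and F7. Of both mutant groups, 3 mice of 4 were below every ctrl mouse, and S2 and T2 were within the ctrl range. The difference passed the threshold in neither comparison. The log fold change was −0.44 in cKO versus ctrl (95% interval −0.89 to 0.01, edgeR FDR = 1) and −0.62 in dKO versus ctrl (−1.03 to −0.21, edgeR FDR = 0.809).

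*Neurod4* (ENSMUSG00000048015, chr10:130268152-130280240, minus strand), another helix-loop-helix differentiation factor, had between 0 and 22 counts per mouse. Its mean was 3.91 ± 4.34 CPM in ctrl (SD, n = 7), 1.90 ± 0.663 in cKO and 1.61 ± 1.36 in dKO (SD, n = 4 each). The groups overlapped, and the log fold change of −0.79 in cKO versus ctrl had an interval of −1.61 to 0.03.

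*Rnd2* (ENSMUSG00000001313, chr11:101464999-101471853, plus strand), a small GTPase that acts in the migration of newborn cortical neurons, was at 24.5, 34.8 and 51.4 CPM at the lowest, median and highest ctrl mouse. In cKO it was at 13.4, 25.3, 39.7 and 25.5 CPM in mice 5, 7, S2 and F3. In dKO it was at 43.1, 38.8, 31.1 and 25.4 CPM in mice T2, T8, F1 and F7. The dKO mice all lay within the ctrl range, and in cKO mouse 5 alone lay outside it. The log fold change was −0.40 in cKO versus ctrl (−0.87 to 0.07) and −0.07 in dKO versus ctrl (−0.47 to 0.33). *Rnd2* shares 226 exon bases with *Vat1* on the other strand, and whether the counting used strand is not given in the sources used here.

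*Mfng* (ENSMUSG00000018169, chr15:78755882-78773475, minus strand) encodes a Fringe glycosyltransferase that modifies Notch receptors. It was at 14.0, 22.2 and 31.8 CPM at the lowest, median and highest ctrl mouse. In cKO it was at 15.0, 18.8, 28.3 and 12.3 CPM in mice 5, 7, S2 and F3, and in dKO at 24.9, 15.7, 21.4 and 15.1 CPM in mice T2, T8, F1 and F7. The 3 groups overlapped, and the log fold changes of −0.35 in cKO versus ctrl (−0.82 to 0.11) and −0.38 in dKO versus ctrl (−0.83 to 0.07) had FDR = 1 in edgeR.

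*Hes6* (ENSMUSG00000067071, chr1:91411483-91414038, minus strand), a Hes family member that opposes the Notch effector *Hes1*, differed least in cKO. It ranged from 3.36 to 16.3 CPM over the ctrl mice, from 7.96 to 13.0 over cKO and from 5.54 to 14.2 over dKO. Its log fold change was −0.12 in cKO versus ctrl (−0.65 to 0.42). *Gadd45g* (ENSMUSG00000021453, chr13:51846678-51848468, plus strand), a growth arrest gene switched on as progenitors leave the cycle, ranged from 4.45 to 10.2 CPM over the ctrl mice, from 2.64 to 8.19 over cKO and from 4.97 to 13.9 over dKO. Its log fold change was −0.39 in cKO versus ctrl (−1.0 to 0.22) and 0.25 in dKO versus ctrl (−0.37 to 0.88). In that second comparison it was the only member with a log fold change above 0. The mean of *Rnd2* there was level, at 34.6 CPM in dKO and 34.4 in ctrl.

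**Figure D2:**
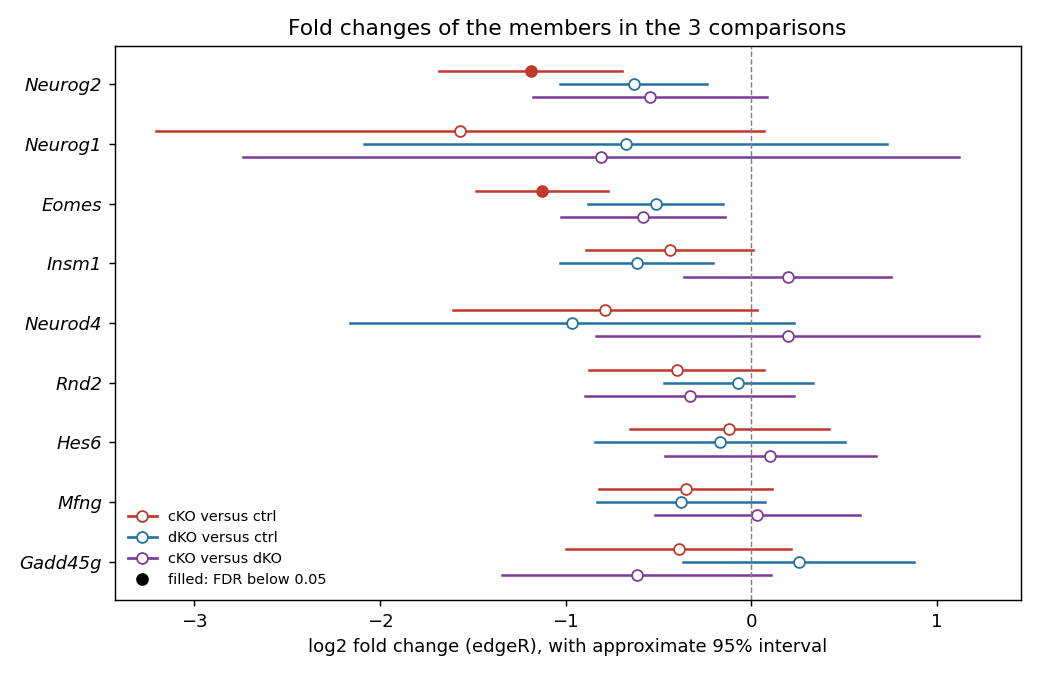
Log2 fold change of the 9 members with counts (horizontal axis) in the 3 comparisons, with approximate 95% intervals as lines. Filled points have an edgeR FDR below 0.05, which holds for *Eomes* (−1.13) and *Neurog2* (−1.19) in cKO versus ctrl and for no member in the other comparisons.

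In cKO versus ctrl, 2 of the 9 members were called lower and 0 higher. The background was 0.367% called lower, 47 of the 12824 genes at or above the mean level of the lowest member, 2.01 CPM. All 9 log fold changes were below 0, with a median of −0.44, where the 12824 genes had a median of 0.03 and 43.1% below 0. With all mice thinned to the lowest total, 7 of the 9 were below 0. The mean of *Hes6* was level, at 10.6 CPM in cKO and 10.5 in ctrl. *Eomes* was the 1 member of 9 with all cKO mice below all ctrl mice, against a background of 0.374%. With library S2 alone for mouse S2 (56.5 CPM, against 51.4 CPM in ctrl T3) the groups overlapped. Over all listed genes, 83 were called, 30 higher and 53 lower. With library totals in place of TMM the split was 17 higher and 91 lower, and with the quasi-likelihood test it was 189 higher and 163 lower. At an unadjusted edgeR p under 0.05 there were 2 of the 9 members and 2441 of the 51912 listed genes. Of those listed, 27394 had at least 1 count in any library. In the lists of other genes below, the background of 0.367% applies to calls lower in cKO among genes at or above 2.01 CPM. A call higher in cKO is set beside the 30 of the 51912 listed genes called higher.

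In dKO versus ctrl, edgeR called 0 of the 9 members, where 0.0078% of the 12824 genes were called lower. The quasi-likelihood test and DESeq2 called 0 as well. At an unadjusted p under 0.05 there were 3 members, *Neurog2* (−0.64, edgeR FDR = 0.708), *Insm1* (−0.62, FDR = 0.809) and *Eomes* (−0.51, FDR = 0.919). Of the 51912 listed genes, 1726 had such a p in edgeR. The log fold change was below 0 for 8 of the 9, with a median of −0.51, against 0.02 and 45.8% over the 12824 genes. With litter as a covariate it was below 0 for 5 of the 9, with a median of −0.24. That fit rests on litter 3, the only litter with both groups (2 dKO and 3 ctrl mice). No member had every dKO mouse below every ctrl mouse, which held for 0.32% of these genes.

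In cKO versus dKO, which asks what loss of *Trp53* changes on the *Knl1* mutant background, edgeR called 0 of the 9 members, where 0.0624% of the 12824 genes were called lower in cKO. The quasi-likelihood test and DESeq2 called 0 as well. *Eomes* alone was at an unadjusted p under 0.05, with a log fold change of −0.58 (interval −1.02 to −0.14, edgeR FDR = 0.78). Of the 51912 listed genes, 2161 had such a p in edgeR. *Neurog2* was at −0.55 (−1.18 to 0.08) and *Gadd45g* at −0.62 (−1.34 to 0.11). *Insm1* was at 0.19 (−0.36 to 0.75) and *Mfng* at 0.03 (−0.52 to 0.58). The median of the 9 was −0.33, with 5 below 0, against 0.04 and 41.4% over the 12824 genes. However, 3 of the 4 cKO mice were of batch 1 and all 4 dKO mice of batch 3. With batch as a covariate the sign turned for *Insm1* (−0.68), *Mfng* (−0.58) and *Hes6* (−0.32, from 0.10), and with litter they were at −0.49, −0.53 and −0.43. *Neurog2* was then at −1.26 and −1.15, and 8 of the 9 members were below 0 in either fit. Batch 3 and litter 4 alone held both groups, and F3 is their only cKO mouse. These covariate fits thus compare F3 with the 4 dKO mice of its batch or the 2 of its litter. In no member was every cKO mouse below every dKO mouse, which held for 1.12% of these genes. Without a covariate, the intervals of the 9 include 0 apart from that of *Eomes*, and their width leaves neither a difference nor its absence shown.

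Per kilobase of exon, the 3 most abundant members in ctrl were *Eomes* at 17.7 ± 3.95, *Rnd2* at 17.3 ± 4.79 and *Neurog2* at 17.0 ± 3.66 CPM per kb (SD, n = 7), which did not differ beyond their spread. *Insm1* followed at 13.2 ± 3.51, *Mfng* at 7.96 ± 2.01, *Gadd45g* at 7.00 ± 1.81 and *Hes6* at 5.83 ± 3.16 CPM per kb. *Neurog1* and *Neurod4* were at 1.78 ± 2.34 and 1.17 ± 1.30 CPM per kb. In cKO the order at the top was *Rnd2* (13.0 ± 5.41), *Insm1* (9.39 ± 3.73), *Eomes* (8.43 ± 2.28) and *Neurog2* (7.46 ± 3.83 CPM per kb; SD, n = 4), each within the spread of the next. In dKO it was *Rnd2* (17.4 ± 3.96), *Eomes* (12.9 ± 3.18), *Neurog2* (11.2 ± 3.38) and *Insm1* (8.76 ± 2.09 CPM per kb; SD, n = 4).

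The SD of *Neurog2* over mice was 8.14 CPM in ctrl and 8.54 in cKO, and that of *Eomes* 16.4 and 9.48. Counting alone gives an SD of 7.11 and 1.83 CPM for *Neurog2* and of 10.3 and 2.58 for *Eomes*, smaller in cKO, whose mice were deeper. Among the cKO mice, S2 had the highest level of the 4 in 8 of the 9 members. Mouse F3 was the lowest in 5 members and mouse 5 in 4. S2 had the largest total, and its *Knl1* level of 80.4 CPM was the highest of the cKO mice and above that of the highest ctrl mouse (80.0 CPM). The *Knl1* mean was higher in cKO than in ctrl in litter 1 (51.2 and 48.9 CPM), litter 2 (80.4 and 70.3) and batch 1 (60.9 and 56.7), and lower in batch 3, where ctrl was at 67.1 CPM. Without S2, 2 members were still called lower, *Neurog2* was at −1.64, 7 of the 9 were at an unadjusted p under 0.05, and the median of the 9 was −0.71. Without S2, the number of genes called over all listed genes went from 83 to 373. The number at an unadjusted edgeR p under 0.05 went from 2441 to 2887 of 51912. The part of depth or of the *Knl1* level in these values was not tested.

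*Eomes* and *Neurog2* were lower in cKO within each litter and batch that held both groups. In litter 1, *Eomes* was at a mean of 30.7 CPM in 2 cKO mice and 80.1 in 2 ctrl mice, and *Neurog2* at 13.7 and 31.7 CPM. In litter 2, *Eomes* was at 48.9 CPM in the cKO mouse and at a mean of 79.5 in 2 ctrl mice, and *Neurog2* at 28.8 and 40.8 CPM. Litter 4 held no ctrl mouse, and there *Eomes* was at 29.8 CPM in the cKO mouse and at a mean of 51.2 in 2 dKO mice. In litter 3, *Eomes* was at a mean of 56.1 CPM in 2 dKO mice and 65.4 in 3 ctrl mice, and the groups overlapped.

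Counted over members, the cKO mean was below the ctrl mean for 8 of 9 in litter 1 and 6 of 9 in litter 2. By batch, it was below for 8 of 9 in batch 1 and 8 of 9 in batch 3, where F3 is the cKO mouse. The dKO mean was below the ctrl mean for 6 of 9 in litter 3 and in batch 3, with no member in which all dKO mice were below all ctrl mice. The cKO mean was below the dKO mean for 8 of 9 members in litter 4 and in batch 3. *Eomes* was at a mean of 36.8 CPM in 3 cKO mice and 80.7 in 3 ctrl mice of batch 1, and in batch 3 at 29.8 CPM in F3 and at a mean of 65.4 in 3 ctrl mice. Batch 2 held a single ctrl mouse, and the means within litters are given without a test. The share of all genes with a lower mean was not computed within litters or batches. These counts are therefore a description and not a result about the members.

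**Figure D3:**
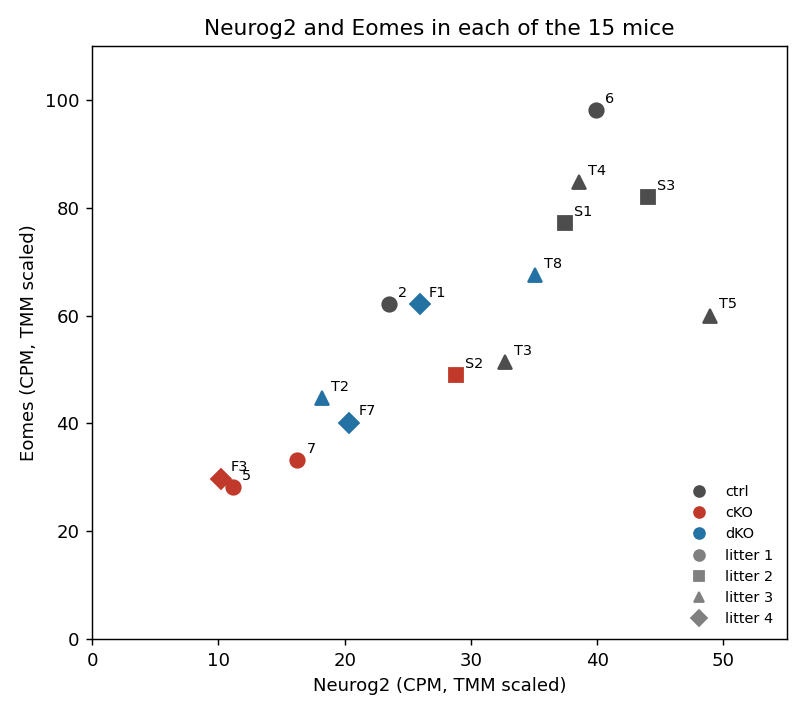
*Neurog2* level (horizontal axis) and *Eomes* level (vertical axis) in CPM with TMM scaling in each of the 15 mice, with color for the group, shape for the litter and the mouse's name beside its point. The cKO mice 5, 7 and F3 lie lowest on both axes, and S2 lies among dKO and ctrl mice.

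*Neurog2* was the member most like *Eomes* over mice, with a Pearson correlation of log2 CPM of 0.89 over the 15 mice, the fourth highest among 9167 genes with a mean of at least 10 CPM. The 5 genes with the highest values were *Lhx2* (0.91), *Creb5* (0.89), *Samd4* (0.89), *Neurog2* and *Serinc5* (0.88). A gene chosen this way tends to share the group difference of *Eomes*, so its lower level in cKO is in part built in. *Creb5* encodes a CREB family transcription factor and had a level of 378 ± 64.2 CPM in ctrl (SD, n = 7) against 216 ± 75.3 in cKO (SD, n = 4). *Samd4*, for an RNA-binding protein, had 113 ± 17.7 CPM against 78.8 ± 18.0, and *Serinc5*, for a membrane protein, 73.1 ± 13.4 against 50.8 ± 5.4, with the same n. Among the other members the correlation with *Eomes* was 0.61 for *Mfng*, 0.49 for *Gadd45g*, 0.48 for *Rnd2*, 0.45 for *Insm1*, 0.43 for *Neurog1*, 0.29 for *Neurod4* and −0.04 for *Hes6*. The points share the group difference and the depth of each mouse, and within the 7 ctrl mice the correlation of *Eomes* with *Neurog2* was 0.34 and with *Insm1* −0.61.

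Levels within a mouse were also set against each other as ratios of CPM. *Eomes* over *Neurog2* was 2.00 ± 0.494 in ctrl (SD, n = 7), 2.30 ± 0.532 in cKO and 2.19 ± 0.278 in dKO (SD, n = 4 each), so the groups differed by less than their spread. *Eomes* over *Tbr1*, its T-box paralog in early excitatory neurons, ranged from 0.337 to 0.558 over the ctrl mice, from 0.148 to 0.254 over cKO and from 0.212 to 0.405 over dKO. *Tbr1* itself was at 178 ± 16.1 CPM in ctrl (SD, n = 7), 201 ± 13.2 in cKO and 171 ± 15.3 in dKO (SD, n = 4 each). *Neurog2* over *Insm1* was between 0.636 and 1.21 in ctrl and between 0.404 and 0.655 in cKO. A ratio shows unequal change, not which gene changed.

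**Figure D4:**
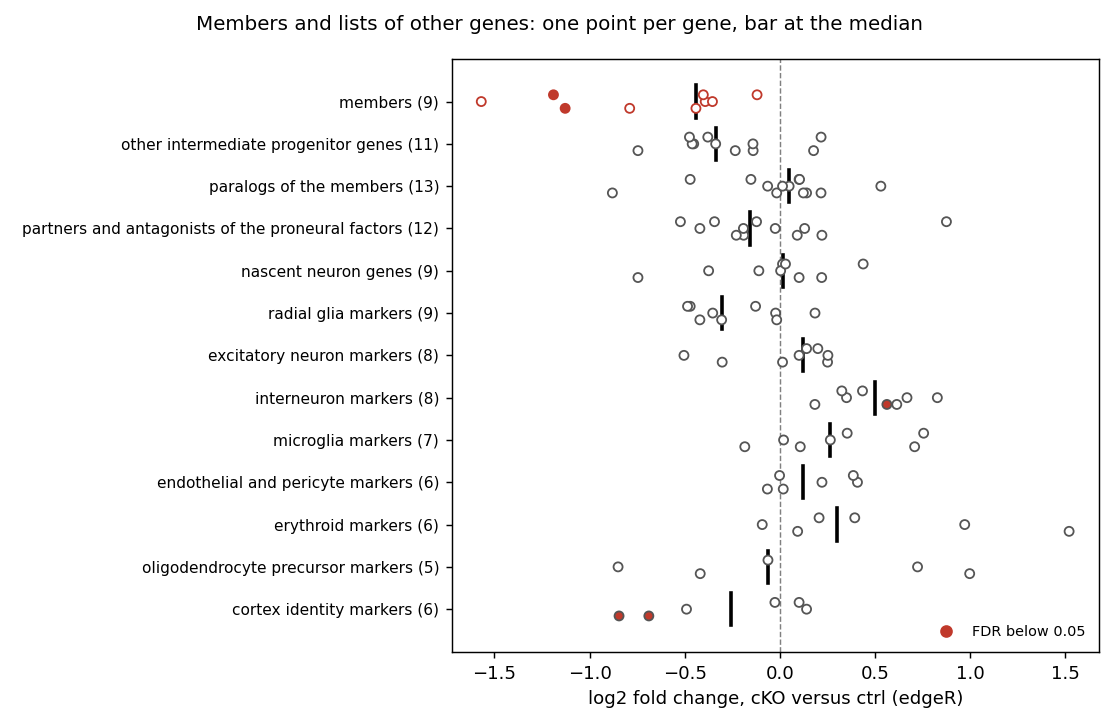
Log2 fold change in cKO versus ctrl (horizontal axis) for the members and 12 lists of other genes, with the number of genes with counts after each name. Points are genes, filled where the edgeR FDR is below 0.05, and the bar is the median, which is −0.44 for the members and 0.50 for the interneuron markers.

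The lists of other genes share some genes, so they are not independent of each other. *Neurod2* and *Neurod6*, for example, are among the paralogs, the nascent neuron genes and the excitatory neuron markers. The 11 other genes of IPs were set beside the members in cKO versus ctrl. In edgeR 0 were called and 5 were at an unadjusted p under 0.05, while the quasi-likelihood test called 2 and DESeq2 3. Of the 11, 9 were below 0, with a median of −0.34. *Kif26b*, a kinesin family gene, had a level of 230 ± 25.3 CPM in ctrl (SD, n = 7) against 169 ± 24.7 in cKO (SD, n = 4), with a log fold change of −0.47 (edgeR FDR = 0.0781). In dKO versus ctrl 0 were called and 3 were at an unadjusted p under 0.05, with 9 of 11 below 0 and a median of −0.24. The quasi-likelihood test and DESeq2 called 0 there.

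Paralogs of the members did not share a direction. Of 13 with counts, 0 were called in edgeR, the quasi-likelihood test and DESeq2, 5 were below 0 and 1 was at an unadjusted p under 0.05, with a median of 0.05 in cKO versus ctrl. The Fringe paralog *Lfng* had a level of 13.2 ± 7.64 CPM in ctrl (SD, n = 7) against 6.96 ± 2.16 in cKO (SD, n = 4), with a log fold change of −0.88 (interval −1.48 to −0.28, edgeR FDR = 0.429). The neuronal *Neurod2* and *Neurod6* were at 0.01 and 0.10.

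Among 12 partners and antagonists of the proneural factors, 0 were called in edgeR and the quasi-likelihood test and 1 in DESeq2, and 4 were at an unadjusted p under 0.05. Their median was −0.16, with 8 below 0. *Id4*, an inhibitor of helix-loop-helix dimers, was at −0.52 (edgeR FDR = 0.566), and *Pax6*, the AP factor upstream of *Neurog2*, was at −0.42 (FDR = 0.992).

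Of 9 radial glia markers with counts, which stand for APs, 8 were below 0 with a median of −0.31, and 0 were called in edgeR, the quasi-likelihood test and DESeq2, with 4 at an unadjusted p under 0.05. *Prom1*, a membrane protein of the apical surface, was at −0.48 (edgeR FDR = 0.566). The summed level of these markers was between 496 and 775 CPM in ctrl and between 516 and 670 in cKO.

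Genes of the cells that IPs give rise to were not lower as a list. Of 9 nascent neuron genes, 3 were below 0 with a median of 0.01, and 0 were called in edgeR and DESeq2, with 1 in the quasi-likelihood test and 3 at an unadjusted p under 0.05. *Stmn2*, a tubulin-binding protein of growing axons, was at 0.44 (edgeR FDR = 0.358). Of 8 excitatory neuron markers, 2 were below 0 with a median of 0.12, and 0 were called in edgeR and 1 each in the quasi-likelihood test and DESeq2, with 1 at an unadjusted p under 0.05. This was *Slc17a6*, a vesicular glutamate transporter, at −0.50 (edgeR FDR = 0.164).

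Of the 6 cortex identity markers, 2 were called lower in cKO, *Lhx2* at −0.69 (standard error 0.17, edgeR FDR = 0.0337) and *Emx1* at −0.84 (0.20, FDR = 0.0194), both transcription factors of dorsal cortical progenitors. Both calls were lost in 7 of the 11 fits that left out a mouse, those without ctrl 6, S3, T4 or T5 or without cKO 5, 7 or F3, with an FDR up to 0.466 for *Lhx2* and 0.203 for *Emx1*, and each was lost in 5 of the 15 other alternatives. All 6 markers had counts in every group, with a summed level from 423 to 616 CPM over the ctrl mice, 434 to 523 over cKO and 380 to 532 over dKO.

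Interneuron markers, genes of cells that enter the cortex from elsewhere, had log fold changes of the other sign. Of 8, 0 were below 0, with a median of 0.50, and 7 were at an unadjusted p under 0.05. *Gad1*, which makes GABA, was the gene called higher, at 0.56 (standard error 0.14, edgeR FDR = 0.0408). That call was kept in 2 of the 11 fits without a mouse, those without ctrl S3 or cKO S2, where the other 9 gave an FDR of up to 0.495, and it was kept in 9 of the 15 other alternatives. The summed level of the 8 ranged from 404 to 838 CPM over the ctrl mice, from 773 to 909 over cKO and from 574 to 818 over dKO. The part of interneuron RNA in the lower levels of *Eomes* and *Neurog2* in cKO was not tested.

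Markers of other cells were low. The summed level of the 7 microglia markers was between 6.52 and 20.0 CPM in ctrl and 11.6 and 21.9 in cKO, and that of the 5 oligodendrocyte precursor markers between 17.4 and 33.3 and between 18.0 and 25.6. The 6 endothelial and pericyte markers summed to between 66.2 and 96.0 CPM in ctrl and 78.6 and 96.5 in cKO, with *Rgs5*, a pericyte gene, at 0.39 (edgeR FDR = 0.879). In these lists edgeR, the quasi-likelihood test and DESeq2 called 0 genes in cKO versus ctrl, with 1 gene in each at an unadjusted p under 0.05. The 6 erythroid markers summed to 9.41 to 25.0 CPM over the ctrl mice, 17.5 to 28.7 over cKO and 24.9 to 30.8 over dKO. The hemoglobin gene *Hba-a2* was called higher in dKO versus ctrl at 1.98 (standard error 0.45, edgeR FDR = 0.0203), a call lost without ctrl 6, S1 or S3 or dKO F1 (FDR up to 0.311) and in 8 of the 12 other alternatives that gave a value. Over all 51912 listed genes, 25 were called higher in dKO versus ctrl and 1 lower. *Hba-a2* has a near-identical copy, *Hba-a1*, and the paper states that reads without a unique position were discarded. The part of any of these markers in the values of the members was not tested.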

How the data were processed

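The authors trimmed Click-seq reads (cutadapt 1.13), aligned them to GENCODE GRCm38/mm10 (STAR 2.5.2a), removed PCR copies by UMI (UMI-tools 0.5.3) and counted reads on genes (htseq-count 0.6.1p1, intersection-nonempty). The annotation release and strand setting are not given in the sources used here. The deposited values are whole-number counts per gene and library, not normalized.

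Libraries S2 and S2b of cKO mouse S2 were summed, which leaves 15 mice in 16 libraries, and the summary lines of htseq-count were dropped. Symbols and coordinates are from GENCODE vM21, which matched 51633 of the 51912 genes. For each comparison, a model of the 2 groups alone was fitted in edgeR 4.0.16 under R 4.3.3 (TMM, estimateDisp, glmFit, glmLRT), over all listed genes and without covariates. A gene was called at a Benjamini-Hochberg FDR below 0.05. The standard error given is the absolute log fold change divided by the square root of the likelihood ratio statistic. Intervals are the log fold change ± 1.96 of these standard errors. They are approximate and carry the same information as the unadjusted p. Correlations used log2 CPM with a prior count of 2. The fit was also run on simulated counts with known changes. These had the same dispersion for all genes and no litter or batch effect, so the fit was not tested on such variation.

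Named were all members, the genes called in each list or otherwise the gene with the largest absolute log fold change in cKO versus ctrl at a mean of at least 10 CPM, the 5 genes most like *Eomes*, *Knl1* and *Trp53*. *Pax6*, *Tbr1*, *Neurod2* and *Neurod6* were named after their values were seen. The members and lists were chosen with earlier results of these data known. The mice come from 4 litters and are separate animals. Alternatives were a quasi-likelihood test, DESeq2 1.42.0, RLE factors, library totals, filterByExpr, all groups in 1 fit, batch, litter or sex as a covariate, the S2 libraries apart, thinning, wild-type ctrl mice, single batches or litters, and leaving out each mouse. Figures were drawn with matplotlib 3.10.9.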

Additional observations from a re-analysis of the deposited data

Results flagged for a closer look

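In all, 3 values stood apart from the rest of their group by Dixon's test, among 27 groups of 4 or 7 mice examined, and chance gives about 1 in 20. *Neurog1* was at 11.7 CPM in ctrl mouse T3, from 5 counts. *Neurod4* was at 13.3 CPM in ctrl mouse T5, from 6 counts. *Gadd45g* was at 2.64 CPM in cKO mouse 5, from 13 counts, while the other cKO mice lay between 7.25 and 8.19 CPM. T3 and T5 are the ctrl mice with the fewest counts in all, 399832 and 417440.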

How the results depend on the processing

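Of 633 log fold changes of members under the alternatives, 594 kept their direction and side of the threshold, 6 lost the call and 33 changed sign, the last all in members never called. The cause was not tested. In cKO versus ctrl 1 member instead of 2 was called after thinning, with wild-type ctrl mice only and in batch 1 only, and 1 to 2 when a mouse was left out; *Neurog2* was then at −1.31, −1.10 and −0.95, and at −1.03, −1.15 and −1.02 without cKO 5, 7 and F3. In dKO versus ctrl and cKO versus dKO 0 members were called in every alternative.

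Sign changes in cKO versus ctrl were *Gadd45g* 0.22 and *Hes6* 0.49 after thinning. In dKO versus ctrl they were *Hes6* 0.38 with batch, 0.0769 with litter, 0.35 in batch 3 and 0.0498 in litter 3, *Mfng* 0.0347 with litter and 0.0644 in litter 3, and *Rnd2* 0.17 in both. In cKO versus dKO, with batch, they were *Insm1* −0.68, *Hes6* −0.32 and *Mfng* −0.58, and with litter −0.49, −0.43 and −0.53. Both of these covariate fits rest on F3 as the only cKO mouse that shares a batch or litter with dKO mice. After thinning, *Hes6* was −0.49, *Neurod4* −0.32 and *Mfng* −0.33. *Mfng* was also −0.0323 with DESeq2, −0.0200 with RLE factors, −0.0496 with library totals and −0.0314 with filterByExpr. Without a mouse, *Rnd2* ranged from −0.16 to 0.0913 in dKO versus ctrl, and in cKO versus dKO *Insm1* from −0.0876 to 0.43, *Hes6* from −0.0491 to 0.41, *Neurod4* from −0.21 to 0.69 and *Mfng* from −0.28 to 0.19.

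All genes called ranged from 13 in batch 1 only to 373 without S2 in cKO versus ctrl (main 83), from 3 in litter 3 only to 113 with the quasi-likelihood test in dKO versus ctrl (main 26), and from 3 with batch to 184 with the quasi-likelihood test in cKO versus dKO (main 27). Replicate numbers are not shared between groups, and the labels tie mice by litter, so litter as a covariate was the blocked fit. It kept both member calls in cKO versus ctrl, where litters 1 and 2 hold both groups. In dKO versus ctrl it called 0 members, but only litter 3 holds both groups, with 2 dKO and 3 ctrl mice. In cKO versus dKO only litter 4 does, so that fit compares 1 cKO mouse with 2 dKO mice. With so few mice, the lack of a call does not show that members are unchanged. Depth limits *Neurog1* and *Neurod4* most, since 3 counts are 7.50 CPM in the shallowest mouse. *Neurog1* and *Neurod4* did not pass filterByExpr and have no value there.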
